A study of Mus musculus with 62 samples.

Results

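The shape of the mitochondrial network was followed through 8 genes that encode its core fusion and fission machinery: Mfn1, Mfn2, Opa1, Dnm1l, Fis1, Mff, Mief1 and Mief2. They were taken by symbol from the 55487 gene rows of the deposited count table, each matched 1 row, and 8 of 8 passed the filter on low counts that 14549 genes passed. Mitochondria are merged and divided by large GTPases. The mitofusins Mfn1 and Mfn2 join the outer membranes of neighbouring mitochondria and Opa1 joins the inner membranes and shapes the cristae. Division is carried out by the GTPase that Dnm1l encodes, known as Drp1, which is drawn from the cytosol to the outer membrane by the receptors Mff, Mief1 (MiD51) and Mief2 (MiD49), and Fis1 is a further outer membrane protein of the fission pathway. In skeletal muscle, where mitochondria lie in rows between myofibrils, this balance is known to bear on respiration, on the inheritance of mitochondrial DNA and on the removal of damaged organelles.

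Poly-A RNA was sequenced from the quadriceps of 62 male mice after crossing 3 treatments in every combination: voluntary running in a wheel, nicotinamide riboside (NR, a form of vitamin B3 from which cells make NAD) and pterostilbene (PT, a resveratrol-like stilbenoid found in plants). The runners comprised 8 mice with NR and PT, 7 with NR alone, 8 with PT alone and 7 with neither, and the non-runners comprised 8 mice with NR and PT, 8 with NR alone, 8 with PT alone and 8 with neither. The series title gives NR as intravenous, and the labels name no strain, age, dose or vehicle. Mice were terminated over 8 days, and on each day the runners and the non-runners were terminated at different times (morning or noon), giving 16 sessions of 3 or 4 mice. Sessions are therefore nested in running state, and differences between sessions that day and time do not capture cannot be told apart from running. Cohort 1 (31 mice) was terminated on days 1 to 4 and cohort 2 (31 mice) on days 5 to 8. The labels also give 3 purification pools. All libraries of cohort 1 were in pool 1 and most of cohort 2, 25 libraries, in pool 3, so cohort and pool can hardly be told apart. The values are read counts scaled to library size (CPM), with library sizes adjusted by the trimmed mean of M values (TMM). Libraries held 5.64 to 30.8 M counts (M for mega) with a median of 16.1 M, so that even the scarcest member, Mief1, had a median of 443 counts per library, with a lowest count of 125. The library of 1 runner with NR alone, from day 2, stood apart with the smallest total and with 0.578% of its counts on ribosomal-RNA-like genes, against a median of 0.000982%. It held the lowest Dnm1l (65.2 CPM), Fis1 (45.0 CPM) and Mff (105 CPM) and the highest Mief1 (32.3 CPM) of all 62 libraries. Beside it, 6 other libraries lay above 5 medians. Muscle fibre genes were abundant in every library, with 6 of them summing to 116743 to 162191 CPM in the runners and 124424 to 159693 CPM in the non-runners.

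The promoters of 4 members are shown, Mfn1 and Opa1 because their levels moved together most closely, Mfn2 as the other mitofusin and Fis1 as a gene whose correlations with these 3 did not pass the test. They are RefSeq windows on GRCm38.p6, from 250 bases before to 50 bases after the annotated start, read along the gene's strand, at chr3:32529232-32529531 (plus strand), chr4:147904649-147904948 (minus strand), chr16:29579084-29579383 (plus strand) and chr5:136953025-136953324 (plus strand). Capitals mark matches to the motif letters searched on both strands.
Mfn1: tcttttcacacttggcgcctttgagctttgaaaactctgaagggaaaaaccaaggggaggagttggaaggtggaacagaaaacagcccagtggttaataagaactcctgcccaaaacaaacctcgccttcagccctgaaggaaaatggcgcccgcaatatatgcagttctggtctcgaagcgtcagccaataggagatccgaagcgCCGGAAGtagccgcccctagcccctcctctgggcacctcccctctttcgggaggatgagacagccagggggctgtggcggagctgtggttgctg
Mfn2: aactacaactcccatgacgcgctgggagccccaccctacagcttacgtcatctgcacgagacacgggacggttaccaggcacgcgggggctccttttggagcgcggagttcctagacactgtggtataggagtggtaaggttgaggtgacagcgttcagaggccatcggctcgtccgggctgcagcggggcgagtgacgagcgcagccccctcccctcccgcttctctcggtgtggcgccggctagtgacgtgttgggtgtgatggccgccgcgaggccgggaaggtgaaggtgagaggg
Opa1: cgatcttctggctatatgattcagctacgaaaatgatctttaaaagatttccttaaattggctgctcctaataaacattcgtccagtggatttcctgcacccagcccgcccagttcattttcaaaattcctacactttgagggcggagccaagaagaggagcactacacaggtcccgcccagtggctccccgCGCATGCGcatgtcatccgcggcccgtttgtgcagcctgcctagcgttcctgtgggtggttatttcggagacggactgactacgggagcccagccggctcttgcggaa
Fis1: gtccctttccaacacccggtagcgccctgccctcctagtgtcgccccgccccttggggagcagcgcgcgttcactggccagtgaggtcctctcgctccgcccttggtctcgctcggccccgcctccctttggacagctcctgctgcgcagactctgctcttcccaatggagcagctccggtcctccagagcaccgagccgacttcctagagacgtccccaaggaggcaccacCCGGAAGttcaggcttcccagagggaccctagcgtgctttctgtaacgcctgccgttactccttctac
Motifs were counted in 1 window per member, the nearest to the deposited gene start, although 13 windows are annotated for the 8 members. The letters CCGGAAG, the core bound by the ETS factor GABPA (nuclear respiratory factor 2), occurred in 3 of these 8 windows, against 8.86% of all 32851 promoter windows. The match began 44 bases before the start in Mfn1, 18 bases before it in Fis1, and 65 bases before and 11 bases past it in Mief1. CGCNTGCG, the core bound by nuclear respiratory factor 1, occurred once, 58 bases before the start of Opa1, against 8.21% of all windows. The oestrogen-related receptor site AAGGTCA (4.72% of all windows), the cyclic AMP response element TGACGTCA (1.79%) and the E-box CAGCTG (16.3%) occurred in none of these 8 windows. Over the 13 member windows, CCGGAAG occurred in 5 and CAGCTG in 1, a second Dnm1l window that held both. The end of the counted Dnm1l window lay in no annotated Dnm1l transcript, and that of the second window did. None of these motifs overlapped another, and a match describes letters and not a bound site.

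Deposited coordinates of the members are in mm10. Mfn1 (ENSMUSG00000027668) spans chr3:32529465-32579239 and Mfn2 (ENSMUSG00000029020) chr4:147873599-147904687. Opa1 (ENSMUSG00000038084, chr16:29579334-29654884) and Dnm1l (ENSMUSG00000022789, chr16:16312230-16358959) share chromosome 16. Fis1 (ENSMUSG00000019054) spans chr5:136953275-136966232, Mff (ENSMUSG00000026150) chr1:82724890-82752390, Mief1 (ENSMUSG00000022412) chr15:80234018-80253349 and Mief2 (ENSMUSG00000018599) chr11:60728398-60732951. Exon bases shared with another annotated gene made up 4.67% of Dnm1l (an antisense transcript), 2.63% of Mief1 (a short coding gene on the same strand) and 2.0% of Mff (an opposite-strand transcript), and the other members shared none.

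Per kilobase of exon, Mfn2 was by far the most abundant member, at 127 ± 8.8 CPM per kb (SD, n = 62). Fis1 followed at 40.0 ± 3.35 CPM per kb and Mfn1 at 39.5 ± 4.21 CPM per kb, and this pair could not be ranked, since Fis1 was the higher of them in 37 of 62 libraries. Mief2 lay at 27.2 ± 2.35, Opa1 at 19.1 ± 1.49, Dnm1l at 15.9 ± 1.31 and Mff at 12.8 ± 0.605 CPM per kb. Mief1 was the scarcest, at 3.21 ± 0.271 CPM per kb, below its paralogue Mief2 throughout. Every other neighbouring pair in this order kept it in 62 of 62 libraries, and the order of the 6 genes other than Fis1 and Mfn1 was the same in all 8 groups. The length of a gene was that of all its annotated exons together, not of the transcripts present in muscle. It is fixed for each gene, so agreement between libraries does not test the order between genes. Mfn1 exceeded Fis1 in 3 of the 4 running groups and in 0 of the 4 non-running groups by group mean. Without division by length, as CPM, Mfn2 stayed 1st and Mief1 8th, and Mfn1 stood 2nd, Opa1 3rd, Mff 4th, Dnm1l 5th, Mief2 6th and Fis1 7th. Spread over libraries was smallest for Mff, with a coefficient of variation of 4.72%, and largest for Mfn1, at 10.7%.

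**Figure D1:**
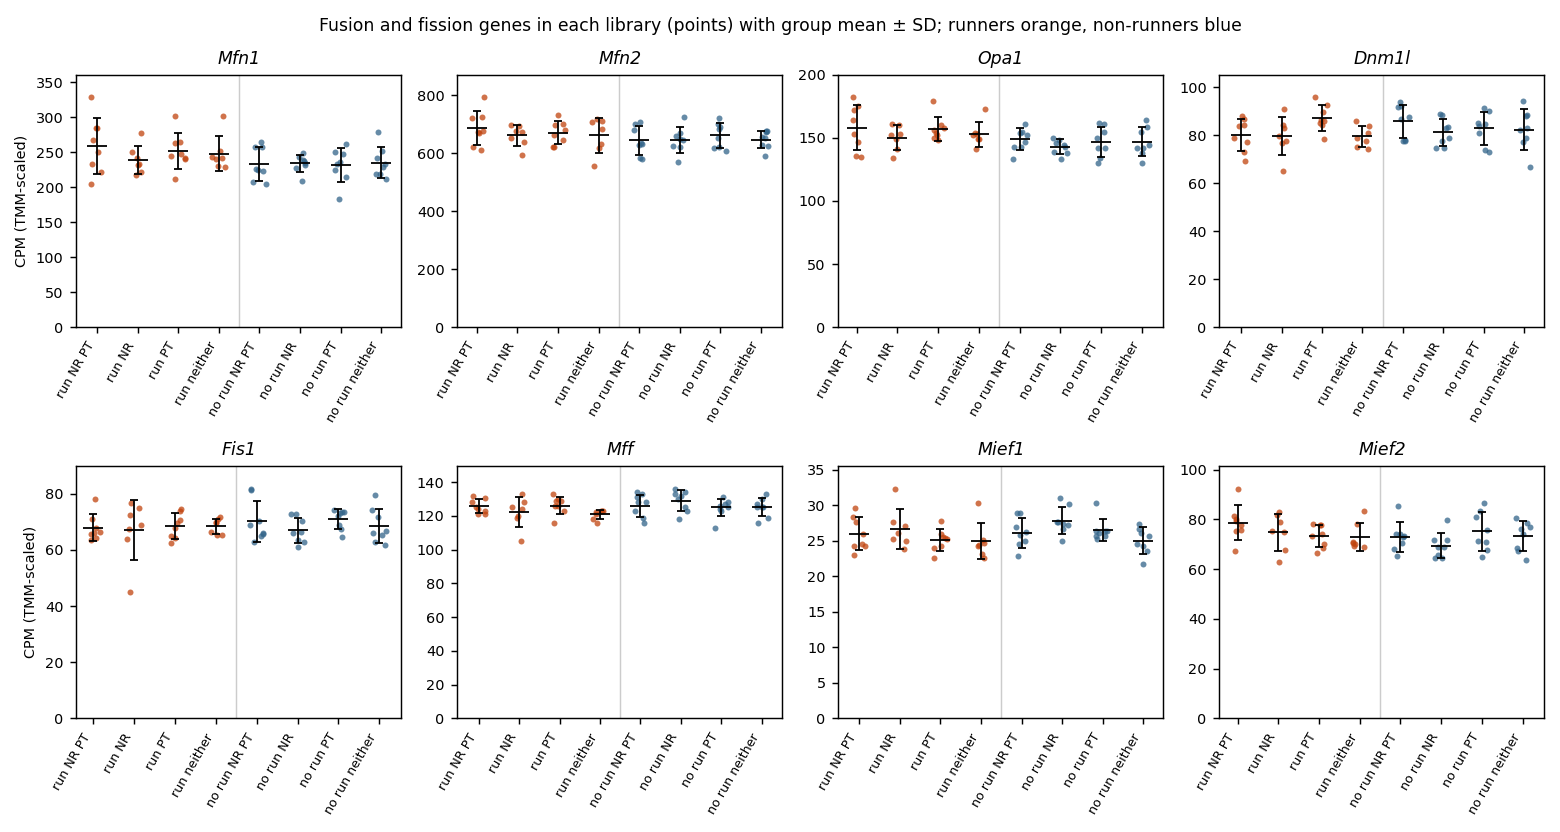
CPM of each member in each of the 62 libraries (points), by group, with the group mean and SD in black. Runners (orange) stand left of non-runners (blue), and the groups overlap in every panel; the single low Fis1 point at 45.0 CPM is the runner with NR alone from day 2.

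The running comparison asks what wheel running did to the machinery across all supplement arms, with 30 runners and 32 non-runners. The changes were small in every member. On the genome-wide test 1 of 8 members, Opa1, rose and 0 fell, against a background of 14% of the 14549 genes called, 8.41% higher and 5.58% lower. Of the genes called, 1223 were higher and 812 lower, and this split moved to 1104 and 1039 with size factors by relative log expression, 1213 and 1168 with DESeq2, 885 and 1090 without the 7 libraries rich in ribosomal-like counts, and 1144 and 1247 without the day 2 library alone. The median log2 change of the 8 was 0.01, the same as that of all genes tested, and 4 of 8 lay above 0. By the 95% intervals no member was lower than 0.932-fold or higher than 1.12-fold in runners.

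Among the fusion genes, Opa1 ranged over 134, 153 and 182 CPM in the runners (lowest, median, highest), against 129.7, 144 and 164 CPM in the non-runners. The groups overlapped broadly, with 5 of 30 runners above the highest non-runner and 0 below the lowest. Opa1 averaged 155 ± 12.3 CPM in the runners and 146 ± 9.66 CPM in the non-runners (SD), a fitted log2 change of 0.08 ± 0.03 (SE), or 1.06-fold (95% interval 1.02 to 1.10), with an edgeR adjusted p of 0.0392. It was higher in the runner in 21 of 30 pairs of mice of the same supplements and day, and in the mean of 8 of 8 days. The call was narrow: the log2 change stayed between 0.06 and 0.09 under 19 alternative analyses, but the adjusted p, 0.0368 to 0.355 over the 19, lay above the threshold of 0.05 in 15 of them, including 0.0557 with DESeq2, 0.137 without the 7 libraries rich in ribosomal-like counts and 0.139 with counts summed per session. Leaving out only the day 2 library that stood apart, an analysis chosen after the data were seen, gave 0.07 ± 0.03 (edgeR adjusted p = 0.0698). Within cohort 1 the log2 change was 0.07 ± 0.04 (adjusted p = 0.35) and within cohort 2 it was 0.08 ± 0.04 (adjusted p = 0.355).

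Mfn1 ranged over 204, 242 and 328 CPM in the runners, against 183, 233 and 279 CPM in the non-runners. It averaged 249.7 ± 28.6 CPM in the runners and 233 ± 20.1 CPM in the non-runners, a log2 change of 0.09 ± 0.04 that did not pass the test (edgeR adjusted p = 0.0689). Runner means were above non-runner means on 7 of 8 days and level on the remaining day. The 5 runners above every non-runner for Mfn1 were the same 5 as for Opa1, of which 3 had NR and PT, 1 PT alone and 1 neither. Mfn2 ranged over 557, 675 and 792 CPM in the runners and 570, 649.5 and 724 CPM in the non-runners, and its log2 change was 0.04 ± 0.03 (edgeR adjusted p = 0.313).

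The 5 fission genes had log2 changes between -0.04 and 0.04, and 0 of them passed the test. Dnm1l ranged over 65.2, 83.5 and 95.8 CPM in the runners, against 66.6, 83.3 and 94.5 CPM in the non-runners, with a log2 change of -0.02 ± 0.03 (edgeR adjusted p = 0.71). Fis1 ranged over 45.0, 67.7 and 78.2 CPM in the runners and 61.0, 68.0 and 81.7 CPM in the non-runners, with a log2 change of -0.02 ± 0.03 (edgeR adjusted p = 0.693), and of 0.01 without the 7 libraries rich in ribosomal-like counts. Its runners and non-runners could not be told apart.

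Of the receptors that bring Drp1 to the membrane, Mff ranged over 105, 123 and 133 CPM in the runners, against 113, 126 and 136 CPM in the non-runners. Its log2 change was -0.03 ± 0.02 (edgeR adjusted p = 0.385), and runner means were the lower on 7 of 8 days, by at most 0.05 on the log2 scale. Mief1 ranged over 22.5, 25.2 and 32.3 CPM in the runners and 21.7, 26.2 and 31.0 CPM in the non-runners (log2 change -0.04 ± 0.03, edgeR adjusted p = 0.378). Its paralogue Mief2 ranged over 62.7, 75.3 and 92.3 CPM in the runners and 63.5, 71.8 and 86.4 CPM in the non-runners (log2 change 0.04 ± 0.03, edgeR adjusted p = 0.397).

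**Figure D2:**
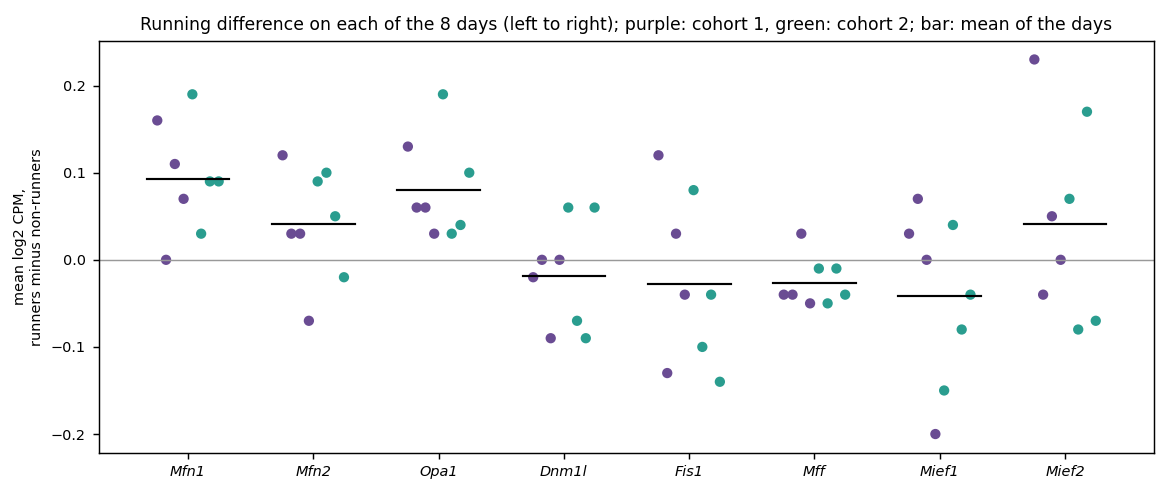
Mean log2 CPM of runners minus that of non-runners on each of the 8 days of termination, for each member, with cohort 1 in purple, cohort 2 in green and the mean of the days as a bar. Opa1 lies above 0 on 8 of 8 days, between 0.03 and 0.19, and Mff lies below 0 on 7 of 8.

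Running was also compared within each supplement arm, and no member passed the test in any of the 4. The largest rise was that of Mfn1 in mice with NR and PT, at 259 ± 40.3 CPM in the runners and 233 ± 23.6 CPM in the non-runners (SD, n = 8 each), a log2 change of 0.15 ± 0.07 (edgeR adjusted p = 0.279; background 1.7% of genes called, 0.825% higher). The largest fall was that of Dnm1l in the same arm, at 80.3 ± 6.73 CPM in the runners and 85.8 ± 6.93 CPM in the non-runners. Its log2 change was -0.10 ± 0.06 (edgeR adjusted p = 0.418, background 0.873% lower). Mff in mice with NR alone averaged 122 ± 8.86 CPM in the runners (n = 7) and 129 ± 6.18 CPM in the non-runners (n = 8). The log2 change of Mff was -0.08 ± 0.04 (edgeR adjusted p = 0.487, background 0.447%, 0.0412% lower). Without the day 2 library it averaged 125 ± 5.19 CPM in the runners (n = 6), and the log2 change was -0.06 ± 0.04 (edgeR adjusted p = 0.649). In mice with PT alone, where 0.00687% of genes were called, Mfn1 and Opa1 had log2 changes of 0.13 ± 0.07 and 0.10 ± 0.05 (edgeR adjusted p = 0.602 and 0.591). With neither supplement 0% of genes were called.

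NR left the 8 genes without a call, against a background of 0.0206% of genes called (0.0137% higher and 0.00687% lower). The member with the lowest p was Mief1, which ranged over 22.8, 26.7 and 32.3 CPM with NR and 21.7, 25.4 and 30.3 CPM without NR. It averaged 26.7 ± 2.3 CPM with NR and 25.4 ± 1.93 CPM without NR (SD, n = 31 each), a log2 change of 0.07 ± 0.03 with an unadjusted edgeR p of 0.0274 and an adjusted p of 0.789. It was higher with NR in 19 of 30 matched pairs, and the difference was 0.14 ± 0.04 in cohort 1 and 0.00 ± 0.04 in cohort 2; whether the cohorts differed was not tested. By arm, it was largest in non-runners without PT, at 27.8 ± 1.89 CPM with NR and 25.0 ± 1.86 CPM without NR (SD, n = 8 each), a log2 change of 0.16 ± 0.06 (edgeR adjusted p = 1; 0% of genes called). The other 7 members had NR changes between -0.02 and 0.02, with 95% intervals from 0.941-fold to 1.05-fold.

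PT likewise left the 8 genes without a call, and 0 of 14549 genes (0%) passed the test for PT, with 580 at an unadjusted edgeR p below 0.05 and none of the 8 among them. Dnm1l had the lowest p, at 84.1 ± 6.73 CPM with PT (n = 32) and 80.8 ± 6.63 CPM without PT (n = 30), a log2 change of 0.05 ± 0.03 (edgeR adjusted p = 1, unadjusted p = 0.0804). Opa1 averaged 153 ± 13.0 CPM with PT and 148 ± 9.79 CPM without PT, and was higher with PT in 21 of 30 matched pairs (log2 change 0.04 ± 0.03, edgeR adjusted p = 1). Among the 8 groups Dnm1l was highest in runners with PT alone, at 87.3 ± 5.35 CPM (SD, n = 8). The NR change within runners with PT was -0.12 ± 0.06, at 80.3 ± 6.73 CPM with NR and 87.3 ± 5.35 CPM without NR (edgeR adjusted p = 0.999; 0% of genes called), and the PT change within runners without NR was 0.12 ± 0.06, at 87.3 ± 5.35 CPM with PT and 79.6 ± 4.36 CPM without PT (n = 7; edgeR adjusted p = 1; 0% of genes called). These 2 comparisons share the runners with PT alone. The 8 PT changes lay between -0.01 and 0.05, with 95% intervals from 0.955-fold to 1.08-fold.

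**Figure D3:**
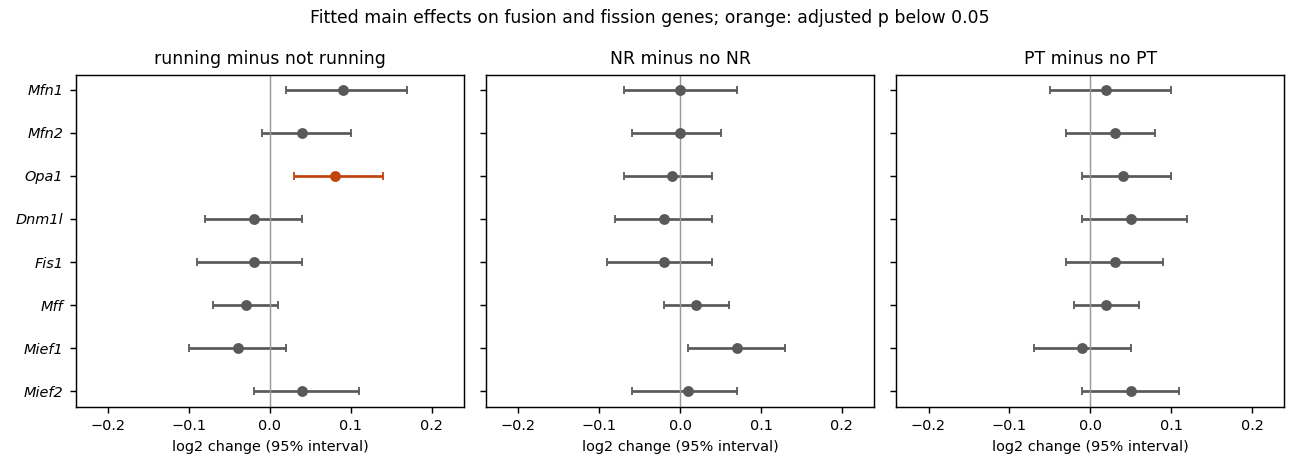
Fitted log2 changes of the 8 members with 95% intervals, for running minus not running, NR minus no NR, and PT minus no PT. Opa1 under running, at 0.08, is in orange as the only value whose adjusted p was below 0.05.

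Whether a treatment altered the response to another was tested by the interaction terms, for each of which 0% of genes were called by edgeR. Mief2 came closest for running by NR. It averaged 78.6 ± 7.04 CPM in the runners and 72.9 ± 5.88 CPM in the non-runners with NR and PT, and 74.9 ± 7.43 CPM in the runners and 69.5 ± 5.17 CPM in the non-runners with NR alone. Without NR the same means were 73.3 ± 4.51 CPM in the runners and 75.2 ± 7.71 CPM in the non-runners with PT, and 73.1 ± 5.6 CPM in the runners and 73.2 ± 6.04 CPM in the non-runners with neither. The interaction was 0.13 ± 0.06 on the log2 scale, with an unadjusted edgeR p of 0.0466 and an adjusted p of 1. The running by PT term of Mff was 0.07 ± 0.04, the NR by PT term of Mief1 -0.10 ± 0.06 and the 3-way term of Dnm1l -0.19 ± 0.12 (edgeR adjusted p = 1 for each). Noon against morning termination gave no call among the members, with Mief1 nearest at 0.06 ± 0.03 (edgeR adjusted p = 0.977; 0% of genes called).

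Around the core machinery, the running changes were uneven between lists, and each list is read against the 14% of all genes called. Of the 8 genes for inner membrane proteases and scaffolds that process or hold Opa1, Afg3l2, a subunit of the matrix AAA protease, rose, at 91.8 ± 7.72 CPM in the runners and 85.8 ± 6.15 CPM in the non-runners (log2 change 0.09 ± 0.03, edgeR adjusted p = 0.0224), and 0 fell. The Afg3l2 call was lost under 8 of 19 alternatives, both single cohorts among them (0.09 with adjusted p = 0.215 in cohort 1, 0.08 with adjusted p = 0.337 in cohort 2). The Opa1-cleaving peptidases Oma1 and Yme1l1 had log2 changes of 0.02 ± 0.04 and -0.05 ± 0.03 (edgeR adjusted p = 0.78 and 0.338). The list's median was 0.02.

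Of 11 genes of the cristae junction complex, Immt, which encodes the mitofilin subunit Mic60, rose and 0 fell. Immt averaged 338 ± 37.2 CPM in the runners and 305 ± 19.7 CPM in the non-runners, a log2 change of 0.15 ± 0.03 (edgeR adjusted p = 0.00169). Within cohorts it was 0.16 (adjusted p = 0.0643) in cohort 1 and 0.12 (adjusted p = 0.146) in cohort 2. The list's median of 0.08 lay above the 0.01 of all genes, and 8 of 11 lay above 0. Chchd3 (Mic19) had a log2 change of 0.10 ± 0.03 (edgeR adjusted p = 0.0507), Chchd6 (Mic25) 0.16 ± 0.07 (0.0973) and Samm50, of the outer membrane sorting machinery, 0.07 ± 0.03 (0.0754). The number called in this list was 5 without the day 2 library and 6 without all of day 2. It was 5 without the 7 libraries rich in ribosomal-like counts, among them Chchd3 (edgeR adjusted p = 0.0278) and Samm50 (edgeR adjusted p = 0.0158). In cohort 1 alone and in cohort 2 alone it was 0. Over all genes, 2391, 2358, 1975, 623 and 63 were called in these settings, in the order named.

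Of 16 other fusion and fission factors 14 were tested, 2 rose and 1 fell. Mtfp1, an inner membrane protein that promotes fission, had the largest change of the list, at 46.2 ± 6.9 CPM in the runners and 38.3 ± 4.98 CPM in the non-runners (log2 change 0.27 ± 0.05, edgeR adjusted p = 0.000194). Its ranges were 32.3 to 60.1 CPM in the runners and 30.6 to 47.4 CPM in the non-runners, so the groups overlapped. Within cohort 1 its log2 change was 0.27 (adjusted p = 0.0298) and within cohort 2 it was 0.26 (adjusted p = 0.0754). March5, the outer membrane ubiquitin ligase that acts on Drp1, its receptors and the mitofusins, fell, at 69.4 ± 4.51 CPM in the runners and 73.8 ± 3.53 CPM in the non-runners (-0.09 ± 0.02, edgeR adjusted p = 0.00844), and by -0.10 and -0.08 within cohorts 1 and 2 (adjusted p = 0.106 and 0.313). Mtfr1, a regulator of fission, rose by 0.11 ± 0.04 (edgeR adjusted p = 0.0338), a call lost under 12 of 19 alternatives, including without the 7 libraries rich in ribosomal-like counts (adjusted p = 0.105). Inf2, the formin that assembles actin at sites of division, had 0.15 ± 0.06 (edgeR adjusted p = 0.0607).

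The 6 genes of mitochondrial transport along microtubules and actin split in direction. Trak1, the adaptor that links mitochondria to motors, rose by 0.12 ± 0.03 (edgeR adjusted p = 0.00113) and Rhot2 (Miro2) rose by 0.12 ± 0.03 (0.0144). Kif5b, the kinesin heavy chain, changed by -0.11 ± 0.03 (edgeR adjusted p = 0.0184) and Rhot1 (Miro1) by -0.06 ± 0.02 (0.0431), both lower in runners. The calls were lost under 3 of 19 alternatives for Trak1, 6 for Rhot2, 4 for Kif5b and 10 for Rhot1, in each case including cohort 1 alone (adjusted p = 0.173, 0.26, 0.0641 and 0.232) and cohort 2 alone (adjusted p = 0.0799, 0.171, 0.48 and 0.459). The Rhot1 call was also lost without the 7 libraries rich in ribosomal-like counts (adjusted p = 0.0623). Of the 3 classical dynamins, 0 were called. Dnm2 had a log2 change of 0.02 ± 0.02 and Dnm3 of -0.13 ± 0.07 (edgeR adjusted p = 0.544 and 0.215), and Dnm2 took the opposite sign without day 5 (-0.01) and in cohort 1 (-0.04). Dnm3 was called without day 3, at -0.22 (adjusted p = 0.028), and was -0.05 without day 1.

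Markers of mitochondrial content give the setting for these values. Of 20 such genes 10 rose and 0 fell, with a median of 0.11. The genes called were citrate synthase and subunits of the respiratory chain and ATP synthase, such as Uqcrc1, at 712 ± 90.4 CPM in the runners and 608 ± 61.9 CPM in the non-runners (log2 change 0.22 ± 0.04, edgeR adjusted p = 0.000257), Atp5b (0.20 ± 0.04, 0.000165), Ndufa10 (0.21 ± 0.04, 0.000268) and Cs (0.16 ± 0.03, 0.000163). The 10 genes not called encode import, pore and chaperone proteins: Tomm20 had 0.00 ± 0.03, Tomm22 -0.01 ± 0.03, Tomm40 0.05 ± 0.04, Vdac1 0.05 ± 0.03, Vdac2 0.00 ± 0.02, Vdac3 -0.02 ± 0.03, Tomm70a -0.04 ± 0.03, Timm23 -0.06 ± 0.04, Timm44 0.07 ± 0.03 and Hspd1 0.01 ± 0.03 (edgeR adjusted p 0.103 to 0.963). In cohort 2 alone, where 63 genes were called in all, 0 of the 20 were. These lists had 0 genes called for NR or PT.

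**Figure D4:**
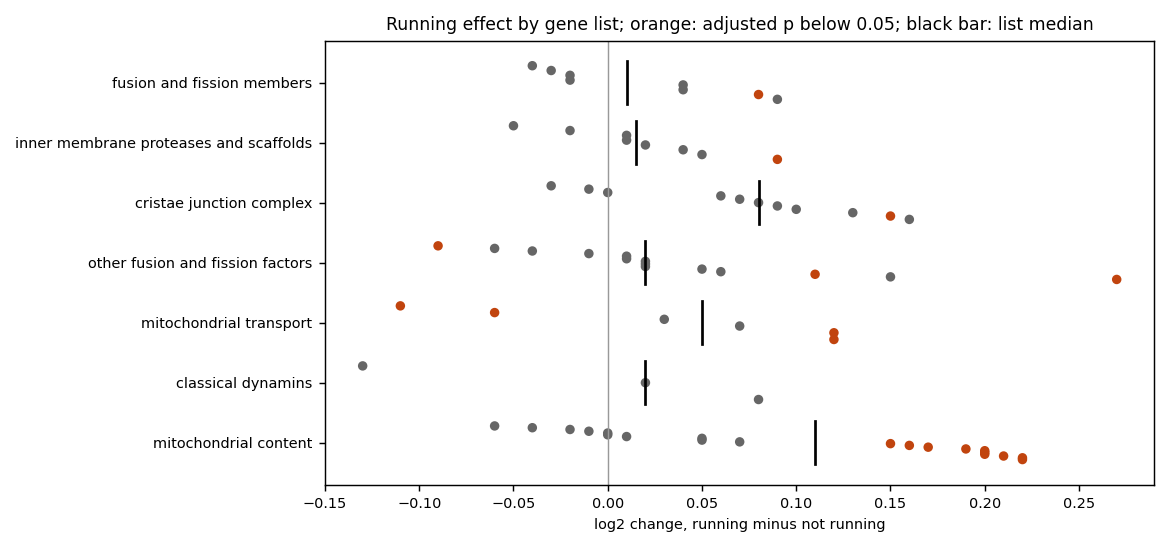
Fitted log2 change with running of each tested gene (points) in each list, with called genes in orange and the list median as a black bar. The members' median is 0.01 and that of the mitochondrial content list 0.11, where called genes lie between 0.15 and 0.22.

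Markers of other cell types moved with running as well. Of 12 endothelial markers 12 rose, with a median log2 change of 0.27, and their sum ranged over 304, 422 and 589.6 CPM in the runners and 286, 348 and 397 CPM in the non-runners (lowest, median, highest), with no marker at 0. In cohort 2 alone 1 of the 12 was called. The slow fibre list, which also held Myh2, the fast type IIa myosin, had a median of 0.51 with 1 of 8, Myl2, called. Its sum ranged over 187, 581 and 1994 CPM in the runners and 137, 452 and 1151 CPM in the non-runners. Most of that sum was Myh2, which averaged 679 of 759 CPM in the runners and 474 of 538 CPM in the non-runners. Runner medians of Myh7, Myl2, Myl3, Tnnt1, Tnnc1 and Tnni1 lay between 0.534 and 2.11 CPM, near the floor. The sum therefore does not measure slow fibres. The Myl2 call was lost under 13 of 19 alternatives and without 7 of the 8 days, and its log2 change was 0.42 when cohort 1 was fitted alone (adjusted p = 0.743), against 1.74 for cohort 2 fitted alone (adjusted p = 0.215). Among 6 genes each, 2 macrophage and leukocyte, 2 fibroblast and 1 adipocyte marker rose and 0 fell, 3 smooth muscle and pericyte markers rose and 1 fell, 1 Schwann cell and nerve marker fell, and 0 muscle fibre genes were called. The part of these cells in the Opa1 result was not tested, and in whole muscle fewer cells of a type and less RNA per cell cannot be told apart.

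Some members varied together from animal to animal. Log2 CPM values were centred within each session, so that mean differences between running states, days and times could not contribute. The 28 pairs of members were correlated over 62 libraries, with permutation tests of 100000 resamples within sessions, adjusted over the 28 pairs. Differences between runners of the same session, such as in their response to running, were left in. So were differences between supplement arms, since the mice of a session each came from a different arm. The libraries share their scaling and each pair shares its libraries' composition. Mfn1 and Opa1 were the closest pair, with r = 0.80 and rho = 0.81 (permutation p = 1e-05, the smallest these resamples can give; adjusted p = 0.00014), r = 0.77 without the 2 libraries farthest from the median of Mfn1, and r = 0.82 in cohort 1 and 0.80 in cohort 2. Mfn1 with Mfn2 had r = 0.60 and rho = 0.67 (permutation p = 1e-05, adjusted p = 0.00014; 0.62 without the 2 farthest, 0.56 in cohort 1 and 0.68 in cohort 2). Mfn2 with Opa1 was looser, at r = 0.44 and rho = 0.47 (permutation p = 0.00228, adjusted p = 0.00912; 0.46 without the 2 farthest, 0.34 and 0.57 in cohorts 1 and 2).

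Of the fission genes, Dnm1l, Mff and Mief2 stood in pairs that passed the test. Opa1 with Dnm1l had r = 0.56 and rho = 0.58 (permutation p = 0.00021, adjusted p = 0.00147; 0.53 without the 2 farthest libraries, 0.41 in cohort 1 and 0.71 in cohort 2). Dnm1l with its receptor gene Mff had r = 0.52 and rho = 0.45 (permutation p = 0.00165, adjusted p = 0.0077), with r = 0.36 without the 2 farthest libraries, 0.59 in cohort 1 and 0.45 in cohort 2. Mief2 went with the mitofusins, at r = 0.51 with Mfn2 (rho = 0.52, permutation p = 0.00015, adjusted p = 0.0014; 0.46 without the 2 farthest, 0.63 in cohort 1 and 0.32 in cohort 2) and r = 0.45 with Mfn1 (rho = 0.47, permutation p = 0.00099, adjusted p = 0.00554; 0.44 without the 2 farthest, 0.55 in cohort 1 and 0.31 in cohort 2). Mief1 had r = 0.29 with Mfn2 (permutation p = 0.0601, adjusted p = 0.124; 0.40 in cohort 1 and 0.11 in cohort 2) and r = 0.20 with Mfn1 (permutation p = 0.24, adjusted p = 0.354), and whether it differed from Mief2 in this was not tested. Mief1 with Mief2 had r = -0.03 (permutation p = 0.822, adjusted p = 0.886) and Mief1 with Dnm1l r = -0.31 (permutation p = 0.0619, adjusted p = 0.124), the lowest of the 28. By r, 7 pairs passed the adjusted threshold, 7 positive and 0 negative, and the median r was 0.25. By rho 10 passed, with Fis1 and Mief2 (rho = 0.39, permutation adjusted p = 0.0162; r = 0.34, adjusted p = 0.066), Mfn1 and Dnm1l, and Mfn1 and Mff (adjusted p = 0.0452 each by rho) besides.

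**Figure D5:**
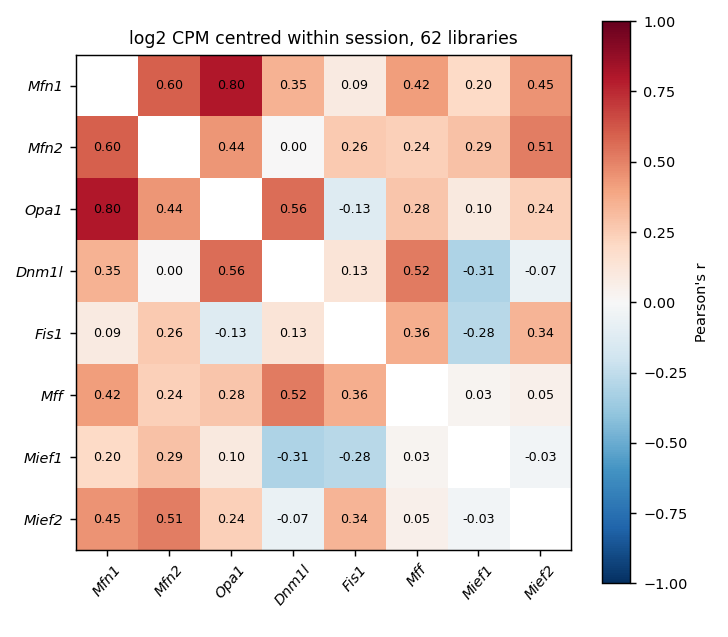
Pearson's r between members over 62 libraries, from log2 CPM centred within session. Red marks positive and blue negative values; Mfn1 with Opa1 is highest at 0.80 and Dnm1l with Mief1 lowest at -0.31.

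The genes whose residual log2 CPM was most like that of each member were named as a description over 62 libraries with no test. They came from the 7355 genes that averaged 10 CPM or more and whose symbol was not a predicted-gene or clone name. For Mfn1 they were Hspa9, the mitochondrial HSP70 (r = 0.91), Etfdh, the electron transfer flavoprotein dehydrogenase (0.90), and Gfm1, a mitochondrial elongation factor (0.89). Opa1 shared Gfm1 (r = 0.84) and added Grsf1, a mitochondrial RNA-binding protein (0.83), and Fam210a (0.82). Mfn2 was most like D17Wsu92e (r = 0.79), the transcription factor gene Nfe2l1 (0.77) and Crat, carnitine acetyltransferase (0.77). Mief2 was most like Esrra, which encodes the oestrogen-related receptor alpha (r = 0.75), the matrix protease Lonp1 (0.70) and Coq10a (0.70). In the order named, rho was 0.92, 0.91 and 0.89 for Mfn1 and 0.85, 0.84 and 0.81 for Opa1. It was 0.73, 0.69 and 0.74 for Mfn2 and 0.76, 0.69 and 0.68 for Mief2.

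On the fission side, Dnm1l was most like Pkia, an inhibitor of protein kinase A (r = 0.77), the complex I assembly factor Ndufaf4 (0.75) and Tmx2 (0.74), and Mff was most like Mmadhc (0.76), Mrpl50 (0.70) and Psmd12 (0.68). Fis1 was most like Rplp0, a ribosomal stalk protein (r = 0.87), Tnni2, fast troponin I (0.86), and the translation factor subunit Eif3k (0.86). Mief1 had the weakest likeness of the 8, with Depdc5 (r = 0.61), Samd4 (0.56) and Dpp9 (0.56). In the order named, rho was 0.72, 0.73 and 0.69 for Dnm1l and 0.63, 0.60 and 0.59 for Mff. It was 0.83, 0.83 and 0.79 for Fis1 and 0.53, 0.40 and 0.46 for Mief1. The day 2 library, with the lowest Dnm1l, Fis1 and Mff and the highest Mief1, was kept, and these values were not computed without it.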

How the data were processed

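Quadriceps poly-A RNA from 62 mice was measured with a stranded kit and paired-end reads, per the labels' protocols. The authors deposited raw read counts per gene, made with STAR 2.7.3a and featureCounts 2.0.0 on mm10, per the submitters' processing notes; the sources used here give neither annotation release nor strand setting, which leaves overlapping genes uncertain. Gene symbols came from GENCODE (99.8% of 55487 rows), and the promoter windows from RefSeq.

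Groups were taken from the labels. Genes were kept by filterByExpr (minimum count 10, minimum total 15; 14549 genes), scaled by TMM and tested two-sided with edgeR 4.0.16 (R 4.3.3), by a robust quasi-likelihood F test with 8 groups, day and time of termination as terms (46 residual degrees of freedom, common biological coefficient of variation 14%). Benjamini-Hochberg adjustment ran over all genes of a comparison, with calls made below 0.05. The pipeline was tested on simulated counts drawn independently, with the same dispersion for every gene and no session, day or time effects. That test therefore does not bear on such effects. Alternatives used DESeq2 1.42.0, limma 3.58.1 voom, other scaling, filters, blocks, single cohorts and left-out days, and 1 added after the data were seen left out the day 2 library that stood apart. Named genes were all members, up to 4 genes with the smallest running p of each list, any list gene called for a supplement, and the 3 genes most like each member; a few others are named for their place in a list, chosen after their values were seen. The members and lists were chosen with earlier results of these data known. The reads carry no molecular identifiers, so counts are not independent molecules, and p-values measure the spread between these libraries.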

Additional observations from a re-analysis of the deposited data

Results flagged for a closer look

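Of 64 sets of 1 member in 1 group, 7 held a library whose distance from the nearest other exceeded the 95% critical value of Dixon's test; chance flags about 1 in 20 sets. They came from 6 libraries. The runner with neither supplement from day 7 was highest in its group for both Mfn1 (301 CPM, next 252 CPM) and Opa1 (173 CPM, next 154 CPM). A runner with PT alone from day 5 was highest for Opa1 at 179 CPM (next 159.9 CPM). The runner with NR alone from day 2, the library with the smallest total and most ribosomal-like counts, was lowest for Fis1 at 45.0 CPM (next 63.7 CPM). A non-runner with PT alone from day 3 was lowest for Mff at 113 CPM (next 123 CPM). Mief1 was highest at 30.3 CPM both in a runner with neither supplement from day 6 (next 25.1 CPM) and in a non-runner with PT alone from day 5 (next 26.4 CPM).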

How the results depend on the processing

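Of 8 members, 1 (Opa1) was called for running, and 0 were called with size factors by relative log expression, without a filter, in cohort 1 or cohort 2 alone, without the libraries rich in ribosomal-like counts, with counts summed per session or with DESeq2; with each day left out the number was 0 to 1: Opa1 lost its call without 7 of the 8 days, all but day 7, and without day 2 Mfn1 was called instead (adjusted p = 0.0406). Without the day 2 library alone, 0 members and 2391 genes were called. Beside 2035 genes called for running, 1333 were called without a filter, which tests more genes, 623 in cohort 1, 63 in cohort 2 and 1245 with counts summed per session; with each day left out the number was 1036 to 2358. For NR 1 gene was called in cohort 1 and 0 in cohort 2, against 3 in all. For the running by PT interaction DESeq2 called 6 genes, where edgeR called 0. Signs turned for values near 0: with the ribosomal-like libraries left out, Fis1 for running (0.01), Dnm1l (0.01) and Mief2 (-0.01) for NR, and Mfn2 (-0.01) and Fis1 (-0.02) for PT; in cohort 1, Dnm2 for running (-0.04), Opa1 for NR (0.03) and Mief1 for PT (0.03); in cohort 2, Dnm1l (0.03) and Mief2 (-0.02) for NR; and with a day left out, Dnm2 for running (-0.01 to 0.04, negative without day 5), Mief2 (-0.01 to 0.02, negative without day 1) and Fis1 (-0.04 to 0.01, positive without day 2) for NR, and Mief1 for PT (-0.02 to 0.01, positive without day 6). Mfn1 and Mfn2 had NR changes that rounded to 0 in the main fit. In cohort 1 these were 0.07 and 0.05, and in cohort 2 they were -0.06 and -0.05. Myl3, at 1.54 for running and never called, was -0.05 in cohort 1. The cause was not tested. No member was called for NR, PT or an interaction under any alternative run. The promoter counts over the 8 windows, 1 per member, did not change in a window from 150 bases before the start. Levels without division by length moved the places of 6 of the 8 members.

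Mice of the same replicate number were spread over different days of termination, so the numbers were not treated as pairs in the main fit. The 211 same-numbered pairs had a median correlation of 0.01 (-0.5 to 0.49), and other pairs -0.01. Such values cannot show by themselves whether mice were paired. With the number as a replicate block, 2045 genes were called for running and 0 of 8 members (Opa1 0.08, adjusted p = 0.0573).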
